A study of Mus musculus with 6 samples.

Results

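The 76 genes described here code for proteins that fuse vesicles with their target membranes, or that build lysosomes and lysosome-related granules. They were chosen by name among 55573 genes of a mouse RNA-seq table: every protein-coding gene whose symbol starts with Vamp, Stx, Stxbp, Hps, Bloc1s or Vps followed by a digit. There were 23 SNARE genes (Vamp and Stx), 7 syntaxin-binding protein genes (Stxbp), 11 HPS and BLOC genes and 35 VPS genes. The rule itself uses the names alone and no measured value.

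The study compared 3 wild-type (WT) with 3 Abcc4-/- samples, all labelled as megakaryocytes, the bone marrow cells that make platelets. The sample titles also carry BM and CD41, the surface integrin encoded by Itga2b, and the study's title names megakaryocyte formation as its subject. Abcc4 codes for an efflux pump of the ATP-binding cassette family that exports cyclic nucleotides and drugs. The labels give no strain, age or treatment and do not describe the deleted part of Abcc4. They also do not tie the samples to individual mice, so every p-value rests on sample-to-sample spread that may be technical only.

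SNAREs are short membrane proteins that zip together across a vesicle (R-SNAREs, mostly Vamp proteins) and its target (syntaxins and SNAP proteins), pulling both membranes into contact. Sec1/Munc18 proteins, to which several Stxbp genes belong, hold and guide the syntaxins. BLOC-1, BLOC-2 and BLOC-3 send cargo to lysosome-related organelles, such as melanosomes and the dense granules of platelets, and their loss causes Hermansky-Pudlak syndrome, with pale skin and bleeding. VPS proteins, named from yeast vacuolar protein sorting, form tethers (HOPS, CORVET), recycling coats and tethers (retromer, GARP, EARP) and the ESCRT machinery that sorts cargo into multivesicular bodies, which are precursors of platelet granules.

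The promoters of some of these genes carry the palindrome TCACGTGA, the E-box core of the CLEAR element bound by the TFEB family of lysosomal gene regulators. Promoter windows of 300 bases, 250 before and 50 after an annotated start, were held in the RefSeq table (GRCm38.p6) for 57 of the 76 members. A search for TCACGTGA, which reads alike on both strands, found it in 7 of the 57 (12.3%), against 304 of 27025 genes (1.12%) and 246 of 17492 protein-coding genes (1.41%). The windows are shown because these members come from several of the complexes described below. Each line holds 48 bases, 5′ to 3′ on the gene's own strand, with the palindrome in capitals.
Bloc1s1: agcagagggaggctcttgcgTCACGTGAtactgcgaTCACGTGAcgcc
Bloc1s3: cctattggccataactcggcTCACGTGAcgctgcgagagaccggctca
Hps3: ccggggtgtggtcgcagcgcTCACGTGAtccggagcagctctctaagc
Stx6: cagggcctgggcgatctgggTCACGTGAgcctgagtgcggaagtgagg
Vps16: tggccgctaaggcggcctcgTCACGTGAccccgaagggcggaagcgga
Vps26a: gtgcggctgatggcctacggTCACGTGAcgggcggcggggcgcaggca
Vps33a: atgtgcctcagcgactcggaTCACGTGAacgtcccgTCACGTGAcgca

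The Bloc1s1 window lies at chr10:128923517-128923564 (minus strand) and holds 2 copies of the palindrome, the first at position -20 from the start. Vps33a also has 2 copies, in chr5:123573017-123573064 (minus strand), the first at -29. The other windows hold 1 copy each: Bloc1s3 at chr7:19508352-19508399 (minus strand, -9), Hps3 at chr3:20035299-20035346 (minus strand, -16), Stx6 at chr1:155158597-155158644 (plus strand, -86), Vps16 at chr2:130424281-130424328 (plus strand, -19) and Vps26a at chr10:62486723-62486770 (minus strand, -152). A further annotated start of Vps26a has a match of its own at -183. The cAMP response element TGACGTCA was found in 2 of the 57 (3.51%) and in 549 of the 27025 genes (2.03%), or 445 of the 17492 protein-coding genes (2.54%). These 2 were Hps4, with the element at -67, and Stxbp3, with it at -108.
Hps4: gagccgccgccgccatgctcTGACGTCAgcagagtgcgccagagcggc
Stxbp3: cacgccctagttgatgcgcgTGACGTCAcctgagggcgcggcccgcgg
The Hps4 window is chr5:112343008-112343055 (plus strand) and the Stxbp3 window chr3:108840583-108840630 (minus strand). A match is a stretch of letters, not a measured site. Of the 7 genes with the E-box palindrome, 1 (Hps3) passed the test of expression described below, as did 9 of the 46 tested members in the table without it. Vamp2, Vamp3 and Vps37b also passed but had no window, so they are in neither group. The log2 fold changes of the 7 ran from -0.18 to 0.20 with a median of 0.05.

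Libraries held 50440239 to 55123512 counts in WT and 67009925 to 99294493 in Abcc4-/-, so a count of 3 stands for 0.0304 to 0.0591 CPM (counts scaled to library size). Abcc4 itself had 74.2, 71.8 and 75.7 CPM in WT against 60.1, 60.5 and 62.3 in Abcc4-/-. It fell by 0.28 on the log2 scale (SE 0.05, edgeR adjusted p = 0.0026). These counts are summed over the entire Abcc4 gene and the labels do not give the deletion, so this is no check of the genotypes. The labelled cell type was checked against marker genes: 13 megakaryocyte markers took 0.0288% to 0.0350% of counts in WT and 0.0198% to 0.0238% in Abcc4-/-, with 9 called lower and 1 higher. The 12 neutrophil markers took 2.33% to 3.01% in WT and 4.13% to 4.32% in Abcc4-/-, with 10 called higher and 1 lower. In every library this share exceeded that of the megakaryocyte markers. The values below therefore cannot be read as those of megakaryocytes alone. B cell markers took 0.0473% to 0.0677% in WT and 0.0873% to 0.0962% in Abcc4-/- (5 of 8 called higher), and T and NK cell markers 0.0102% to 0.0127% and 0.0121% to 0.0134% (6 of 8 higher). Eosinophil markers took 0.0694% to 0.0772% and 0.0355% to 0.0531% (3 of 4 called lower), and mast cell and basophil markers 0.202% to 0.247% and 0.174% to 0.212% (1 of 5 lower). Erythroid markers took 0.0448% to 0.0482% and 0.0372% to 0.0516% (3 of 7 called higher), and monocyte and macrophage markers 0.276% to 0.306% and 0.262% to 0.291% (2 of 9 lower). None of these markers was at 0 in all libraries, and mitochondrial genes took 1.44% to 1.78% of counts in WT and 1.93% to 1.97% in Abcc4-/-. These shares move with genotype beside every result below, and their part in those results was not tested. In bulk samples, fewer cells of a type and less RNA per cell cannot be told apart.

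Of the 76 members, 72 had enough counts to be tested. Stxbp5l had 0 counts in every library, and Vps37d, Stx19 and Vamp9 were below the filter. On the length-scaled TPM scale the tested members had a median level of 28.5, against 11.3 for all 16493 genes tested and 15.5 for protein-coding genes. Vamp8, the main R-SNARE of platelet granule release, and Stxbp2 (Munc18-2), the partner of syntaxin 11, were the members with the highest mean TPM in their groups. Vamp8 stood at 230 ± 12 TPM (SD, n = 3) in WT and 233 ± 0.68 in Abcc4-/-, and Stxbp2 at 272 ± 5.3 and 260 ± 25. The neuronal syntaxin gene Stx1a lay at the low end of the tested members, with 0.52 TPM in WT and 0.72 in Abcc4-/-.

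**Figure D1:**
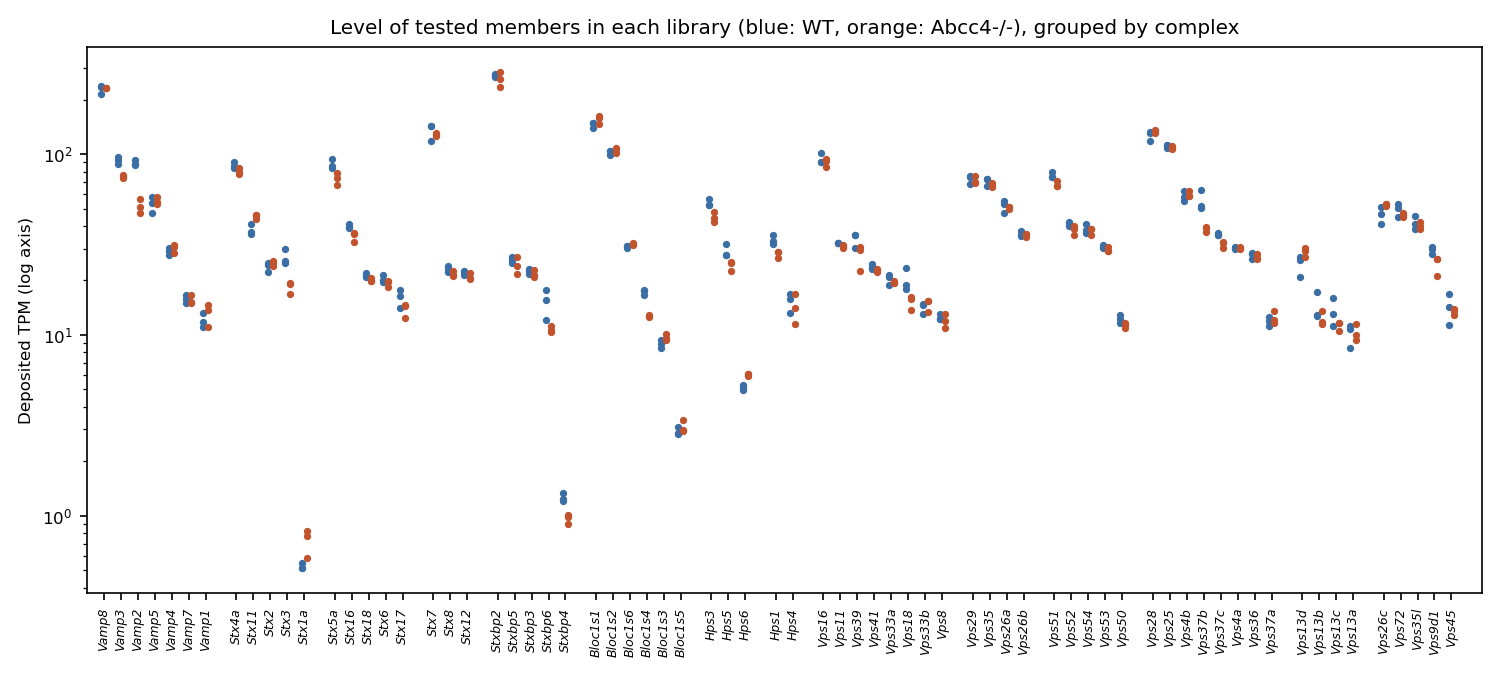
Deposited TPM (log axis) of the tested members shown here in each library, WT in blue and Abcc4-/- in orange, grouped by complex. The libraries of both genotypes lie close together for most members, and Vamp8 and Stxbp2 are at the top with about the same level in both groups (230 and 233 TPM for Vamp8, 272 and 260 TPM for Stxbp2).

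Between genotypes, 13 of the 72 tested members passed an adjusted p of 0.05 (18.1%), 4 higher (5.56%) and 9 lower (12.5%) in Abcc4-/-. Among all genes tested, 17.3% passed, 8.61% higher and 8.68% lower, and 18.6% of protein-coding genes did, so the members' share lies near the background. The CPM values of both groups did not overlap for 28 members (38.9%), against 36.8% of all genes and 38.8% of protein-coding genes. An unadjusted edgeR p under 0.05 was reached by 26 of the 72 tested members. Among all genes tested 5092 of 16493 (30.9%) reached it, and among protein-coding genes 4394 of 13371. The members' median log2 fold change was 0.02 and their median absolute log2 fold change 0.09, against 0.13 over all genes tested and 0.12 over protein-coding genes, with a median SE of 0.06. None of the 72 had a fold change beyond 1.5 in either direction, against 10.6% of all genes tested and 8.19% of protein-coding genes. The median SE was larger over all genes tested (0.08) and over protein-coding genes (0.07) than over the members. Without Abcc4-/- replicate 1 or without Abcc4-/- replicate 3, 8 members passed in place of 13. The share of all genes tested that passed was then 11% and 12.9%. The split of higher and lower calls depended on the scale: on log2(TPM + 1) it was 1 higher and 9 lower, and after centring each library on its median it was 5 and 5.

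By class, the called genes were 4 of 21 SNAREs (19.0%), 2 of 6 Stxbp genes (33.3%), 3 of 11 HPS and BLOC genes (27.3%) and 4 of 34 VPS genes (11.8%). The median log2 fold changes of these classes were 0.02, 0.04, 0.02 and 0.01. Over all genes tested the median was 0.00 and 17.3% were called, as were 18.6% of protein-coding genes. Summed over their members, SNAREs held 1063 ± 20.4 TPM in WT and 976 ± 14.5 in Abcc4-/-, and VPS genes 1385 ± 21.3 and 1325 ± 28.7. HPS and BLOC genes held 445 ± 6.82 and 437 ± 9.16 TPM, and Stxbp genes 340 ± 3.18 and 320 ± 28.6. The SNARE and VPS sums did not overlap between genotypes, whereas those of HPS and BLOC genes and of Stxbp genes did. The TPM scale itself was shifted: on log2(TPM + 1) the median gene tested was lower by 0.06 in Abcc4-/-, as was the median member. The sums were not corrected for this shift, so their lack of overlap cannot be read as a difference between the classes. How often sums over other genes lack overlap was not counted.

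**Figure D2:**
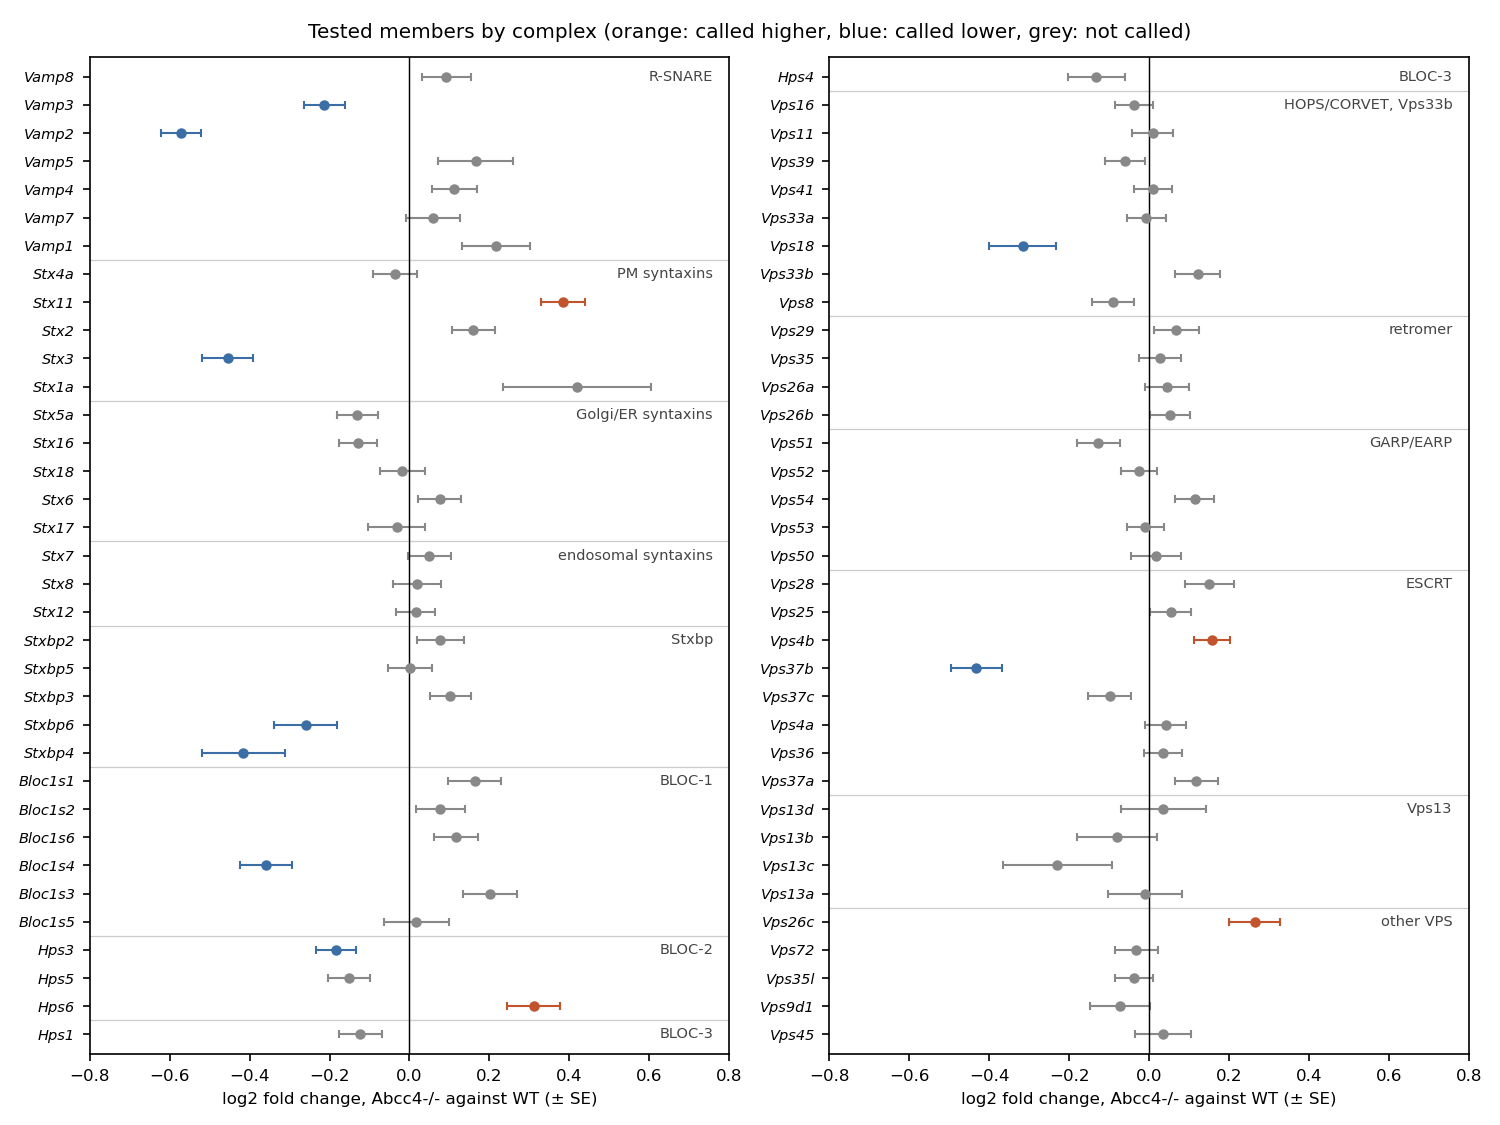
Log2 fold change of Abcc4-/- against WT with its SE for the tested members shown here, grouped by complex, with called members in orange (higher) and blue (lower) and the others in grey. Most members lie within 0.2 of 0 on the log2 scale, and Vamp2 is the farthest below 0 at -0.57.

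Among the R-SNAREs of the Vamp family, Vamp2 and Vamp3 were called lower and none of the 7 tested was called higher. The other 5 had estimates above 0, and the median log2 fold change of the 7 was 0.09. Vamp2 (synaptobrevin 2, ENSMUSG00000020894.16, GRCm38 chr11:69088490-69092384, plus strand) is the R-SNARE of synaptic and other regulated secretory vesicles. Its level was 85.0, 87.4 and 84.2 CPM in WT and at 55.7, 57.0 and 59.9 CPM in Abcc4-/-. Every Abcc4-/- library lay below every WT library, by a distance many times the spread within either group. The mean went from 85.5 ± 1.65 to 57.6 ± 2.14 CPM, a log2 fold change of -0.57 (SE 0.05, 1.49-fold lower, edgeR adjusted p = 2.47e-05). This was the lowest adjusted p among the members, and the call held under all 18 alternative settings.

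Vamp3 (cellubrevin, ENSMUSG00000028955.3, chr4:151047300-151057963, minus strand), the close relative of Vamp2 on recycling endosomes, was at 126, 119 and 122 CPM in WT and at 111, 104 and 102 CPM in Abcc4-/-. The groups did not overlap, with a log2 fold change of -0.21 (SE 0.05, 1.16-fold lower, edgeR adjusted p = 0.0156). Its annotated span overlaps that of Camta1 on the same strand. The call was lost without WT replicate 1, Abcc4-/- replicate 2 or Abcc4-/- replicate 3 (adjusted p 0.0619 to 0.0739).

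The other Vamp genes tested did not pass. Vamp8 was at 116, 116 and 100 CPM in WT and at 120, 118 and 116 CPM in Abcc4-/-, with overlapping groups and a log2 fold change of 0.09 (adjusted p = 0.337). The lysosomal Vamp7 had a log2 fold change of 0.06 (SE 0.07) and the Golgi R-SNARE Vamp4 one of 0.11 (SE 0.06). Vamp1, the other synaptobrevin, was at 27.6, 28.4 and 31.3 CPM in WT and at 29.4, 35.0 and 36.9 CPM in Abcc4-/-, with overlapping groups (log2 fold change 0.22, SE 0.09, adjusted p = 0.114). Vamp1 passed upward in edgeR without Abcc4-/- replicate 1, without the low-count filter and with the replicate number as a block. Vamp5 (log2 fold change 0.17, SE 0.09, edgeR adjusted p = 0.262) passed upward without WT replicate 2. Summed over the Vamp genes, TPM went from 521 ± 11.02 to 473 ± 3.7, without overlap. This sum too was not corrected for the shift of the TPM scale given above.

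Among the plasma membrane and secretory syntaxins, Stx11 rose and Stx3 fell. Stx11 (ENSMUSG00000039232.12, chr10:12938209-12964298, minus strand) codes for an atypical syntaxin without a membrane span, needed for platelet secretion and for the killing granules of lymphocytes, and its loss causes an inherited hemophagocytic syndrome. It was at 76.6, 73.0 and 67.5 CPM in WT and at 94.6, 94.4 and 94.4 CPM in Abcc4-/-. The Abcc4-/- libraries were nearly equal and all lay above WT, giving a log2 fold change of 0.38 (SE 0.05, 1.305-fold higher, edgeR adjusted p = 0.00082). The Stx11 call was lost in 1 of the 18 alternatives, log2(TPM + 1) without a filter (limma adjusted p = 0.075).

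Stx3 (ENSMUSG00000041488.16, chr19:11775118-11819403, minus strand), a plasma membrane syntaxin of polarized and granulated cells, was at 45.8, 47.5 and 53.3 CPM in WT. In Abcc4-/- it was at 34.1, 37.0 and 35.8 CPM, below every WT library. The log2 fold change was -0.46 (SE 0.06, 1.37-fold lower, edgeR adjusted p = 0.000787), and the call held under all 18 alternatives.

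Of the other plasma membrane syntaxins, Stx2 lay just outside the threshold, at 38.2 ± 1.61 CPM in WT and 42.7 ± 1.23 in Abcc4-/- without overlap (log2 fold change 0.16, SE 0.05, adjusted p = 0.0589). Stx4a, the ubiquitous surface syntaxin and the member of this group with the highest TPM (87.1 in WT, 80.4 in Abcc4-/-), had a log2 fold change of -0.04 (adjusted p = 0.714). Stx1a had a log2 fold change of 0.42 that did not pass (SE 0.18, adjusted p = 0.147), at 0.756 CPM in WT and 1.01 in Abcc4-/-, and passed with centred TPM.

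None of the 3 endosomal and none of the 5 Golgi and endoplasmic reticulum syntaxins passed by edgeR. Unadjusted p was under 0.05 for 0 of the former and 2 of the latter. Stx7, the late endosomal syntaxin, was at 140, 131 and 141 CPM in WT and at 151, 141 and 136 CPM in Abcc4-/-, with overlap (log2 fold change 0.05, adjusted p = 0.586). Its partner Stx8 had a log2 fold change of 0.02 and Stx12 of recycling endosomes one of 0.02. Stx5a, which acts between the endoplasmic reticulum and the Golgi, went from 84.0 ± 2.96 to 76.8 ± 2.82 CPM without overlap and without passing (log2 fold change -0.13, adjusted p = 0.106). Stx5a passed on log2(TPM + 1), where the median gene shifts downward by the amount given above.

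Among the Stxbp genes, Stxbp4 and Stxbp6 fell and Stxbp2, Stxbp3 and Stxbp5 did not pass. Stxbp2 was at 190, 195 and 174 CPM in WT and at 187, 202 and 202 CPM in Abcc4-/-, with overlapping groups and a log2 fold change of 0.08 (adjusted p = 0.407). Its syntaxin, Stx11, had risen by 0.38 on the same scale. Stxbp3, coding for Munc18c, had a log2 fold change of 0.10 (adjusted p = 0.203), and the tomosyn gene Stxbp5 was at 0.00.

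Stxbp4 (ENSMUSG00000020546.14, chr11:90476492-90638084, minus strand) codes for Synip, a binding partner of syntaxin 4. It was low, at 4.89, 4.93 and 5.33 CPM in WT and at 3.52, 4.01 and 3.81 CPM in Abcc4-/-, without overlap (log2 fold change -0.42, SE 0.10, 1.33-fold lower, edgeR adjusted p = 0.0187). Its annotated span overlaps 2 processed pseudogenes on the same strand. Whether exons overlap, and any effect on the counts, was not tested. Stxbp6 (amisyn, ENSMUSG00000046314.16, chr12:44852484-45074709, minus strand), which carries a SNARE-like motif but no membrane anchor, was at 43.0, 34.2 and 42.1 CPM in WT and at 34.0, 33.2 and 32.5 CPM in Abcc4-/-. WT replicate 2 nearly touched the Abcc4-/- range, and the adjusted p was 0.0471 (log2 fold change -0.26, SE 0.08), the value nearest the threshold among called members. The Stxbp4 call was lost without WT replicate 3, Abcc4-/- replicate 1 or Abcc4-/- replicate 3 (adjusted p 0.0507 to 0.0640) and on all 4 TPM scales. The Stxbp6 call was lost without WT replicate 1, WT replicate 3 or any of the 3 Abcc4-/- libraries (adjusted p 0.113 to 0.148).

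**Figure D3:**
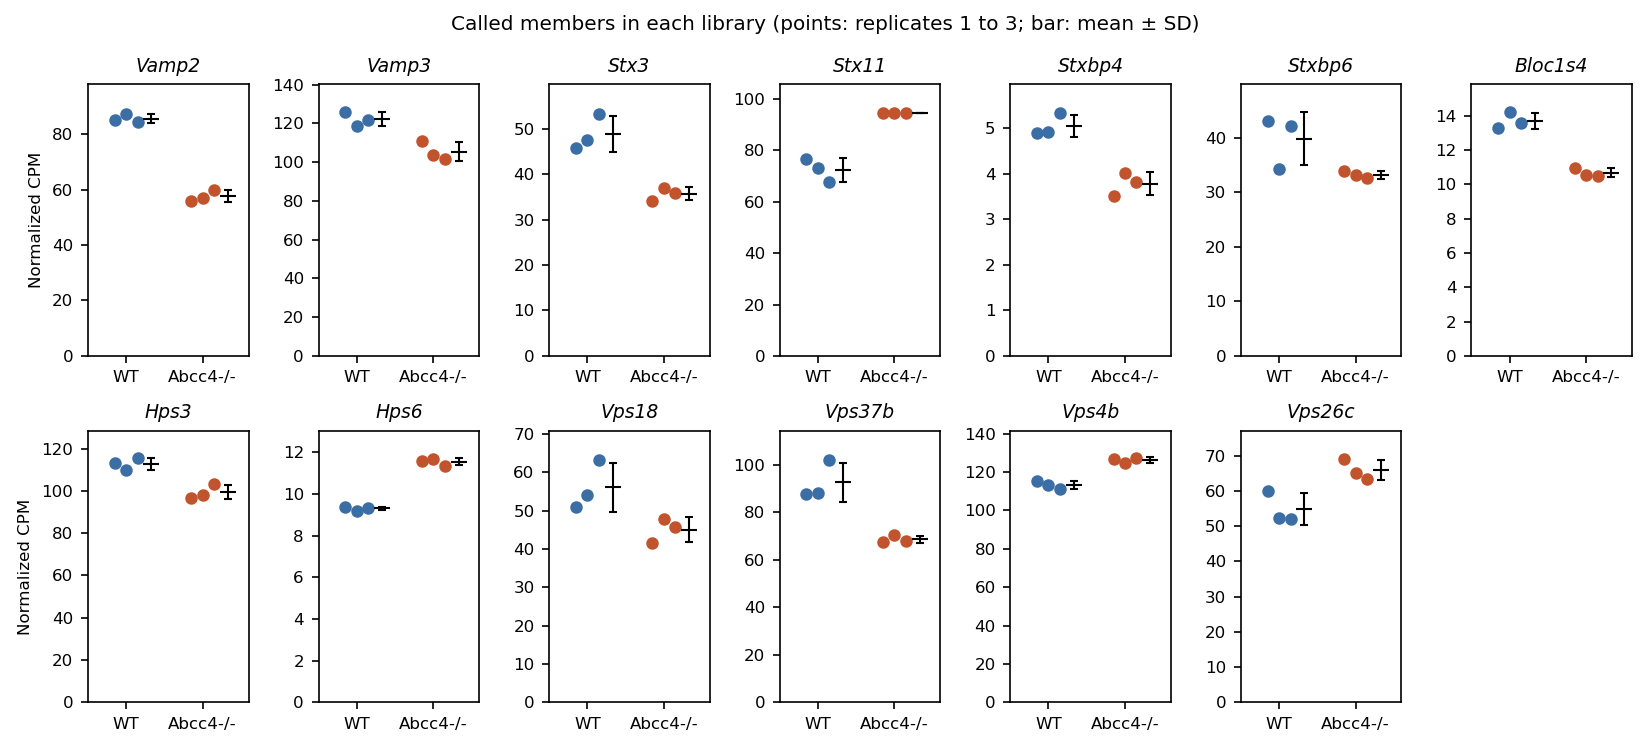
Normalized CPM of the 13 called members in each library (points: replicates 1 to 3; bars: mean ± SD), on axes that start at 0. Stx11, Hps6, Vps4b and Vps26c are higher in Abcc4-/-, the other 9 are lower, and no panel has overlapping groups.

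The 3 subunits of BLOC-2, which hands melanosome and dense granule cargo on from endosomes, did not move together. Hps6 (ENSMUSG00000074811.3, chr19:46003508-46006173, plus strand) was at 9.37, 9.20 and 9.35 CPM in WT and at 11.6, 11.7 and 11.4 CPM in Abcc4-/-. Both groups were tight and apart, and Hps6 rose with a log2 fold change of 0.31 (SE 0.07, 1.24-fold, edgeR adjusted p = 0.00886). Hps3 (ENSMUSG00000027615.14, chr3:19995945-20035315, minus strand) was at 113, 110 and 115 CPM in WT and at 96.8, 98.0 and 103 CPM in Abcc4-/-. Hps3 fell, without overlap, by a log2 fold change of -0.18 (SE 0.05, 1.14-fold lower, edgeR adjusted p = 0.0244). Hps5 was at 65.2, 62.9 and 69.3 CPM in WT and at 57.2, 60.3 and 60.2 CPM in Abcc4-/-, also without overlap, and did not pass (log2 fold change -0.15, adjusted p = 0.0736). The Hps3 call was lost without WT replicate 1, Abcc4-/- replicate 1 or Abcc4-/- replicate 2 (adjusted p 0.0701 to 0.107) and on TPM without a filter or with centring (adjusted p 0.0731 to 0.0873). The Hps6 call was lost on the TPM scales that were not centred (adjusted p 0.104 to 0.140), and the gene overlaps a non-coding RNA gene on its strand. On the TPM scale Hps3 was the most abundant subunit (53.6 in WT, 44.9 in Abcc4-/-), Hps5 followed (29.0 and 24.3) and Hps6 was lowest (5.13 and 6.03).

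In BLOC-3, the exchange factor that activates Rab32 and Rab38, neither subunit passed with all 6 libraries and 1 of the 2 had an unadjusted p under 0.05. Hps1 was at 57.7, 57.5 and 52.0 CPM in WT and at 49.9, 52.0 and 51.7 CPM in Abcc4-/-, with overlap (log2 fold change -0.12, adjusted p = 0.154). On the TPM scale it went from 33.6 to 28.0. Without WT replicate 3 it passed (edgeR adjusted p = 0.0384), as it did on log2(TPM + 1) and log2(TPM + 0.1) (limma adjusted p 0.0371 and 0.0348). On these 2 TPM scales the median gene tested had log2 fold changes of -0.06 and -0.08. Hps4, the partner of Hps1, had a log2 fold change of -0.13 (adjusted p = 0.236).

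In BLOC-1, which sorts cargo out of early endosomes into tubules bound for granules, 1 of 6 tested subunits passed. Bloc1s4 (cappuccino, ENSMUSG00000060708.4, chr5:36747378-36748650, minus strand) was at 13.3, 14.2 and 13.6 CPM in WT and at 10.97, 10.56 and 10.50 CPM in Abcc4-/-. It fell without overlap by a log2 fold change of -0.36 (SE 0.07, 1.28-fold lower, edgeR adjusted p = 0.00361), and the call held under all 18 alternatives. Its complex as a whole had a median log2 fold change of 0.10, and its other subunits had estimates above 0 that did not pass. Bloc1s3 lay just outside the threshold, at 20.996, 19.98 and 17.99 CPM in WT and at 22.5, 23.5 and 21.8 CPM in Abcc4-/- (log2 fold change 0.20, adjusted p = 0.0611). It passed without WT replicate 1 (adjusted p = 0.0431) and without the low-count filter (adjusted p = 0.0246). Bloc1s1, the subunit with the highest TPM (146 in WT, 156 in Abcc4-/-), had a log2 fold change of 0.16 and did not pass (adjusted p = 0.121). Bloc1s1 and Bloc1s3 carry the E-box palindrome in the windows above.

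Among the VPS genes, Vps37b and Vps18 fell and Vps26c and Vps4b rose. Without WT replicate 2 or without Abcc4-/- replicate 1 the count of called VPS genes was 1 in place of 4, and without Abcc4-/- replicate 3 it was 2. Over all genes tested, 14.1%, 11% and 12.9% passed in these 3 settings, against 17.3% with all 6 libraries. In HOPS and CORVET, the tethers of late and early endosomes, Vps18 was the called subunit of 8 genes tested, counting Vps33b. Vps18 (ENSMUSG00000034216.12, chr2:119288740-119298453, plus strand), a core subunit of both tethers, was at 51.0, 54.0 and 63.3 CPM in WT and at 41.5, 47.8 and 45.8 CPM in Abcc4-/-. WT replicate 3 was the highest library, and the log2 fold change was -0.32 (SE 0.08, 1.24-fold lower, edgeR adjusted p = 0.0286). The Vps18 call was lost without WT replicate 2, Abcc4-/- replicate 1 or Abcc4-/- replicate 3 (adjusted p 0.0562 to 0.106) and on all 4 TPM scales.

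The other core subunits lay near 0, with log2 fold changes of 0.01 for Vps11, -0.04 for Vps16 (adjusted p = 0.651) and -0.01 for Vps33a (adjusted p = 0.948). Vps33b, which with Vipas39 is needed to form platelet alpha granules, was at 20.5, 22.1 and 21.5 CPM in WT and at 22.5, 23.6 and 23.4 CPM in Abcc4-/-. Its groups did not overlap, by a narrow margin, and it did not pass (log2 fold change 0.12, adjusted p = 0.167).

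In the ESCRT genes, 1 of 8 tested fell and 1 rose. Vps37b (ENSMUSG00000066278.6, chr5:124004641-124032270, minus strand), one of the alternative Vps37 subunits of ESCRT-I, was at 87.6, 88.0 and 102 CPM in WT and at 67.6, 70.3 and 67.9 CPM in Abcc4-/-. All Abcc4-/- libraries lay well below WT, with a log2 fold change of -0.43 (SE 0.06, 1.35-fold lower, edgeR adjusted p = 0.000962), and the call held under all 18 alternatives. Its alternatives Vps37a and Vps37c had log2 fold changes of 0.12 and -0.10 and did not pass, and the fourth, Vps37d, was at 0.20 TPM in WT. Vps28, the shared ESCRT-I subunit with the highest TPM of the ESCRT genes (128 in WT, 134 in Abcc4-/-), had a log2 fold change of 0.15 (adjusted p = 0.12).

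Vps4b (ENSMUSG00000009907.17, chr1:106764071-106796728, minus strand), an ATPase that takes ESCRT-III filaments apart, was at 115, 113 and 111 CPM in WT and at 127, 125 and 127 CPM in Abcc4-/-. The log2 fold change was 0.16 (SE 0.05, 1.12-fold higher, edgeR adjusted p = 0.0351). The Vps4b call was lost without any 1 of the 6 libraries (WT replicates 1, 2 and 3, Abcc4-/- replicates 1, 2 and 3; adjusted p 0.0571 to 0.117) and on all 4 TPM scales, where its means were 58.6 in WT and 59.9 in Abcc4-/-. Its paralog Vps4a had a log2 fold change of 0.04.

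Retromer, the coat that returns receptors from endosomes, had no called subunit by edgeR, at either the adjusted threshold or an unadjusted p of 0.05. Vps35, Vps26a, Vps26b and Vps29 had log2 fold changes of 0.03, 0.05, 0.05 and 0.07. Vps29, which retriever shares, stood at 72.9 TPM in WT and 71.7 in Abcc4-/-. By contrast Vps26c (ENSMUSG00000022898.13, chr16:94497783-94526830, minus strand), the Vps26 relative in retriever, rose: it was at 59.99, 52.33 and 52.08 CPM in WT and at 69.0, 65.2 and 63.4 CPM in Abcc4-/-. Its log2 fold change was 0.26 (SE 0.06, 1.20-fold higher, edgeR adjusted p = 0.0151), and WT replicate 1 came closest to the Abcc4-/- libraries. The Vps26c call was lost without WT replicate 2 or Abcc4-/- replicate 1 (adjusted p 0.0531 to 0.0689) and on the 3 TPM scales that were not centred (adjusted p 0.12 to 0.233). Vps35l, the retriever counterpart of Vps35, had a log2 fold change of -0.04 and did not pass.

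The GARP and EARP tethers, which receive vesicles at the Golgi and recycling endosomes, had 0 of 5 genes called by edgeR, with 2 at an unadjusted p under 0.05. Vps51, the shared subunit with the highest TPM (76.2 in WT, 68.0 in Abcc4-/-), had a log2 fold change of -0.13 (adjusted p = 0.129), and Vps54, which is specific to GARP, one of 0.11 (adjusted p = 0.134). The 4 Vps13 genes, coding for very large lipid transfer proteins, had 0 called by edgeR with all 6 libraries and 0 at an unadjusted p under 0.05. Vps13c was at 83.2, 76.6 and 109 CPM in WT and at 72.7, 74.6 and 82.4 CPM in Abcc4-/- (log2 fold change -0.23, SE 0.14, adjusted p = 0.318). Vps13d was at 80.4, 82.4 and 103 CPM in WT and at 83.1, 90.6 and 99.0 CPM in Abcc4-/- (log2 fold change 0.04, SE 0.11, adjusted p = 0.861). On log2(TPM + 1) with each library centred on its median, Vps13d passed upward (limma adjusted p = 0.0447). In all 4 Vps13 genes WT replicate 3 was the highest WT library, and the groups overlapped. Among the remaining VPS genes, Vps45, the Sec1/Munc18 protein of endosomes, had a log2 fold change of 0.04 and Vps72, a chromatin remodelling subunit named by its yeast counterpart, one of -0.03, and neither passed.

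The balance between related members within a library does not depend on how libraries are scaled to each other. A set of 12 pairs was picked after their values were seen, so their values are descriptions without a test. On the log2 scale of count ratios, Stx11 to Stx3 went from 0.57 ± 0.21 (SD, n = 3) in WT to 1.41 ± 0.06 in Abcc4-/-, the widest difference of the 12 at 0.84. Vamp2 to Vamp8 went from -0.37 ± 0.10 to -1.04 ± 0.08, and Vamp2 to Vamp3 from -0.51 ± 0.06 to -0.87 ± 0.11. Both lost Vamp2 relative to the other R-SNARE in every Abcc4-/- library. In BLOC-2, Hps6 to Hps3 went from -3.60 ± 0.03 to -3.10 ± 0.07 and Hps6 to Hps5 from -2.82 ± 0.06 to -2.36 ± 0.05. In BLOC-1, Bloc1s4 to Bloc1s1 went from -1.44 ± 0.10 to -1.96 ± 0.08. In ESCRT-I, Vps37b to Vps37a went from 1.59 ± 0.07 to 1.04 ± 0.07. Vps37b to Vps37c went from 0.62 ± 0.16 to 0.29 ± 0.05. Vps18 to Vps11 in the tethers went from -0.31 ± 0.21 to -0.64 ± 0.05, Vps26c to Vps26a from -0.72 ± 0.11 to -0.50 ± 0.03 and Stx11 to Stxbp2 from -1.37 ± 0.05 to -1.06 ± 0.07. The narrowest difference was that of Vps4b to Vps4a, from 1.45 ± 0.03 to 1.57 ± 0.03. None of the 12 pairs had overlapping groups. Each pair holds a called member whose own CPM did not overlap, so this outcome was nearly fixed by the choice of pairs.

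**Figure D4:**
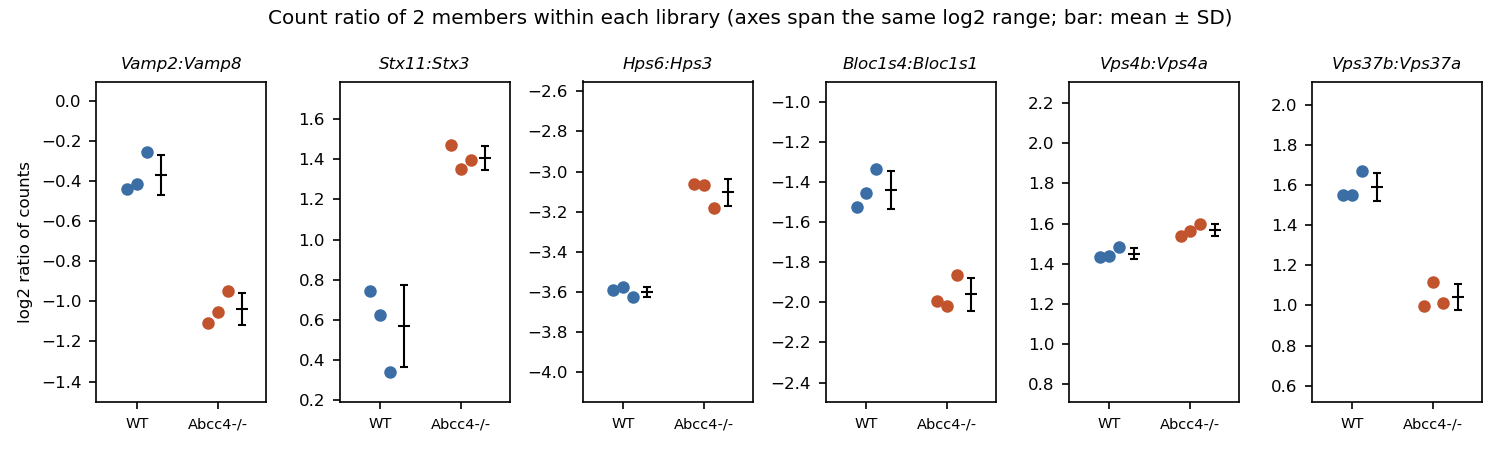
Log2 ratio of the counts of paired members within each library (points: libraries; bars: mean ± SD), with every panel spanning the same log2 range. The Stx11 to Stx3 ratio rises from 0.57 to 1.41 and the Vamp2 to Vamp8 ratio drops from -0.37 to -1.04.

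The genes that work with these proteins were read from lists drawn up by function. Of 23 tested SNARE partners (SNAP proteins, Qb and Qc SNAREs, Nsf and its adaptors, complexins), 3 passed, 2 higher and 1 lower, with a median log2 fold change of 0.01. Snap29, a soluble SNARE of autophagosomes and endosomes, was at 47.8, 48.2 and 53.2 CPM in WT and at 67.0, 64.0 and 66.1 CPM in Abcc4-/- (log2 fold change 0.40, edgeR adjusted p = 0.000696). The groups lay clearly apart. Cplx2, coding for a complexin that clamps assembled SNAREs, was at 17.9, 27.0 and 27.9 CPM in WT and at 58.8, 56.6 and 49.3 CPM in Abcc4-/-, a 2.26-fold rise (edgeR adjusted p = 0.0132). Cplx2 lost its call without Abcc4-/- replicate 2 (adjusted p = 0.0522) and with the replicate number as a block (adjusted p = 0.0819). Sytl4 (granuphilin), an effector of Rab27 proteins, went from 2.86 ± 0.12 to 2.12 CPM (log2 fold change -0.43, adjusted p = 0.0318). Without any 1 of the 6 libraries (WT replicates 1, 2 and 3, Abcc4-/- replicates 1, 2 and 3) the Sytl4 call was lost. The adjusted p was then 0.0546 to 0.102. Over all 18 alternatives the Sytl4 call was lost in 12, with DESeq2 and 3 of the 4 TPM scales among them.

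Of 26 granule biogenesis partners (AP-3, BORC, Rab proteins, Lyst, Nbeal2 and granule membrane proteins), 5 passed (19.2%), 2 higher and 3 lower, with a median log2 fold change of -0.04. Rab27b, the small GTPase that sets dense granule number and secretion in platelets, was at 9.02, 9.36 and 11.1 CPM in WT and at 4.51, 5.65 and 5.56 CPM in Abcc4-/-. It fell by 0.90 on the log2 scale (edgeR adjusted p = 0.000341), more than any member did. Slc35d3, which is needed for dense granules in mouse platelets, was at 4.29, 4.73 and 5.42 CPM in WT and at 1.87, 3.07 and 2.92 CPM in Abcc4-/- (log2 fold change -0.87, edgeR adjusted p = 0.00849). Rab38, a target of BLOC-3, fell from 18.6 to 14.4 CPM (log2 fold change -0.37, edgeR adjusted p = 0.0071). These 3 genes fell beside 9 of the 13 megakaryocyte markers, among them Itga2b, which went from 158 to 96.1 CPM. Of the other markers, Ppbp was called higher (1.84 CPM in WT, 2.72 in Abcc4-/-), and Itgb3, Gp6 and Tubb1 did not pass. Whether the marker changes account for those of Rab27b, Slc35d3 and Rab38 was not tested. Rab27a and Mreg passed upward with adjusted p of 0.0487 and 0.0491. Without any 1 of the 6 libraries (WT replicates 1, 2 and 3, Abcc4-/- replicates 1, 2 and 3) both calls were lost. The adjusted p was then 0.0513 to 0.172. Over all 18 alternatives Rab27a lost its call in 12 and Mreg in 15, with all 4 TPM scales among them for both.

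Of 35 VPS partners (Rab5 and Rab7 genes, sorting nexins, the Vps34 complex and other ESCRT genes), 5 passed (14.3%), 2 higher and 3 lower, with a median log2 fold change of 0.06. Tbc1d5, a regulator of Rab7 that binds retromer, was at 75.5, 74.8 and 83.5 CPM in WT and at 60.7, 65.8 and 63.5 CPM in Abcc4-/- (log2 fold change -0.30, edgeR adjusted p = 0.00485). Uvrag, which joins the Vps34 lipid kinase complex and HOPS, was at 101, 98.6 and 107 CPM in WT and at 89.4, 87.1 and 82.8 CPM in Abcc4-/- (log2 fold change -0.24, edgeR adjusted p = 0.00907). Both had groups that did not overlap. Chmp1b, an ESCRT-III subunit, also fell (log2 fold change -0.22, adjusted p = 0.0128), a call lost without Abcc4-/- replicate 2 or Abcc4-/- replicate 3 (adjusted p 0.0525 to 0.0641). Rab5b and the ESCRT-II gene Snf8 rose by log2 fold changes of 0.23 and 0.19 (adjusted p 0.0147 and 0.0312). The Rab5b call was lost without Abcc4-/- replicate 2 (adjusted p = 0.0553) and on the 3 TPM scales that were not centred (adjusted p 0.103 to 0.185). The Snf8 call was lost without WT replicate 1, WT replicate 3 or any of the 3 Abcc4-/- libraries (adjusted p 0.0543 to 0.0982) and on all 4 TPM scales (adjusted p 0.0732 to 0.228). On log2(TPM + 1) without a filter, Snap29, Slc35d3, Rab38 and Tbc1d5 lost their calls (limma adjusted p 0.0534 to 0.072). Of the called partner genes named and Abcc4, 14 in all, 3 kept the call under every alternative: Abcc4, Rab27b and Uvrag. No partner list had a share of called genes above 19.2%, against 17.3% of all genes tested.

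**Figure D5:**
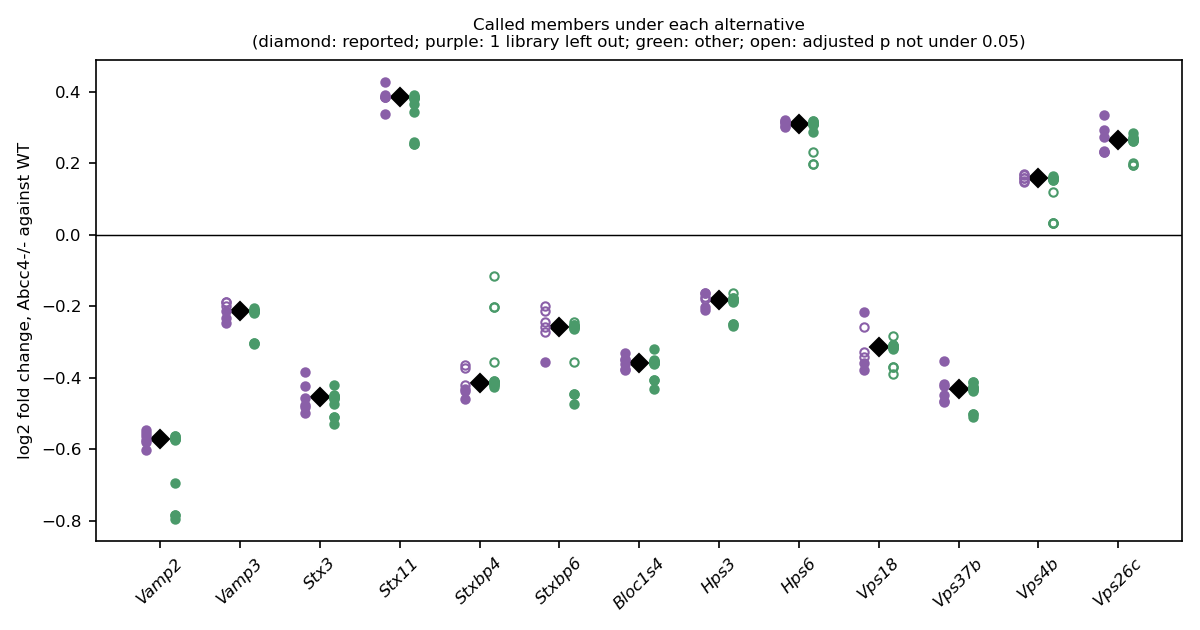
Log2 fold change of each called member as reported (diamond), with 1 library left out (purple) and under other settings (green), open where the adjusted p was not under 0.05. Vamp2, Stx3, Vps37b and Bloc1s4 keep filled points under all 18 alternatives, whereas Vps4b and Stxbp6 have many open points.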

How the data were processed

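Stranded mRNA libraries of 6 samples were sequenced as paired ends, per the labels' protocols. STAR 2.7 and RSEM 1.3.1 with mm10 are named in the submitters' processing notes, with the gene annotation not given in the sources used here. As deposited by the authors, the tables hold expected counts per gene, not normalized, and TPM, which is scaled within each library and by gene length. The 92 spike-in rows were at 0 counts and were left out.

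The deposited expected counts, rounded to integers, were tested over all genes with the edgeR 4.0.16 robust quasi-likelihood test in R 4.3.3 (TMM, default low-count filter, no covariates), with Benjamini-Hochberg adjustment over the 16493 genes kept and a threshold of 0.05, which "called" and "passed" refer to. CPM used TMM library sizes, and every adjusted p is from this test unless a setting is named. The script was tested on simulated counts. Alternatives used limma 3.58.1 (voom, and log2 TPM with pseudocounts of 1 and 0.1), DESeq2 1.42.0, other scalings and filters, thinning, a replicate block and each library left out.

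The members and lists were chosen with earlier results of these data known. Named were all called members, members not tested, the member with the highest TPM and that with the largest fold change in each subgroup, the 2 nearest either side of the threshold, and up to 5 called genes of each partner list; other members are given for context and were chosen after their values were seen. A few members are counted in all totals but not reported here by name. Positions are from GENCODE M21 (GRCm38), promoters from RefSeq. The floor of 3 counts covers counting error only.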

Additional observations from a re-analysis of the deposited data

How the results depend on the processing

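Of the 13 called members, 4 (Vamp2, Stx3, Vps37b, Bloc1s4) passed under all 18 alternatives, 7 lost the call without 1 library or more, 8 lost it on a TPM scale, and 0 changed sign. The count of called members was 5 on log2(TPM + 1) without a filter, and leaving out 1 library gave 8 to 11. The share of all genes tested that passed fell too, from 17.3% to 3.46% in the former and to 10.6% to 14.3% in the latter. Called Stxbp genes were 1 with limma-voom, with thinned counts and on log2(TPM + 1) and log2(TPM + 0.1), 0 without a filter or with centring, and 0 to 2 with 1 library left out. Called VPS genes were 1 on log2(TPM + 1), on log2(TPM + 0.1) and without a filter on TPM, and 1 to 3 with 1 library left out. Called HPS and BLOC genes were 1 on log2(TPM + 1) without a filter. With the replicate number as a block, 17 members passed (8 higher, 9 lower; HPS and BLOC 5), Bloc1s1, Bloc1s3, Stx2 and Vamp1 in addition to the 13, and 3157 genes in all; same-numbered libraries did not deviate together (correlations -0.05, -0.03 and -0.01), so the numbers were not taken as a pairing. Signs reversed for members near 0: Stx7 (-0.0591), Stxbp2 (-0.0691) and Vps29 (-0.0237) on log2(TPM + 1) with and without a filter, the same 3 (-0.0595, -0.0693 and -0.0240) on log2(TPM + 0.1), and Vps16 (0.0219) with centring. With 1 library left out, Stx4a ranged from -0.07015 to 0.0106, positive without WT replicate 2, and Vps13d from -0.02945 to 0.161, negative without WT replicate 1, WT replicate 2 or Abcc4-/- replicate 3. The cause of these changes was not tested. A floor of 3 counts lies at or below 0.0591 CPM, below the level of every tested member. With counts thinned to the smallest library, Stxbp6 lost its call (adjusted p = 0.0577).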

Other observations

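RSEM scales TPM by an effective length per gene and library, so the ratio of deposited counts to TPM, taken relative to the median gene, shows whether the estimated isoform mix of a gene differed in length. This comparison was chosen after seeing the data. Among 66 members with at least 5 TPM in every library, limma called 0 and 6 had an unadjusted p under 0.05, against 28 of 9904 genes called (0.283%) and 1796 at an unadjusted p under 0.05. The members' share at an unadjusted p under 0.05 was thus smaller than that of all genes. Vamp2 had log2 relative lengths of -0.60, -0.57 and -0.62 in WT and of -0.43, -0.46 and -0.50 in Abcc4-/-, without overlap (difference 0.13, adjusted p = 0.112). On the TPM scale Vamp2 went from 89.2 ± 2.7 in WT to 51.5 ± 4.5 in Abcc4-/-. Vps9d1, which codes for a protein with a VPS9 domain, had a difference of 0.11 (adjusted p = 0.0636), also without overlap. Bloc1s2 had a difference of -0.05 in the other direction at the same adjusted p, again without overlap. How many of all genes lacked overlap on this measure was not counted.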
